A study of Mus musculus with 6 samples.

Results

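The interferon regulatory factors (IRFs) are transcription factors that share a DNA-binding domain built around a tryptophan repeat and bind interferon response elements in the promoters of interferon and immune genes. Irf3 and Irf7 are activated by kinases below virus sensors and switch on type I interferon genes, Irf9 carries the type I interferon signal into the nucleus, and Irf1 is itself induced by interferon gamma and inflammatory signals. Irf4, Irf5 and Irf8 are best known from lymphocytes, macrophages and dendritic cells, and Irf4 is also known from adipocytes.

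The family was described in adrenal glands of male mice aged 12 weeks, as all probe sets (groups of array probes for 1 transcript) annotated with the single symbol of a listed member. Of 8 listed genes, 7 were matched, and they gave 9 of the 12422 probe sets that were not controls. Irf2 was not matched and is not analysed here. The samples were 3 arrays of BPH, a hypertensive strain, and 3 arrays of BPL, a hypotensive strain, both from Schlager's selection for blood pressure and without a named transgene or treatment. Total RNA labelled with biotin was hybridised to Affymetrix arrays, and the labels do not say whether an array held 1 animal, so errors and p-values cover only how far these arrays differ, which may be technical. The members were matched by symbol, but the family itself was chosen from measured values of this same BPH and BPL comparison, with its earlier results known. Its strain differences are therefore given as a description, and no p-value is given for a member.

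The arrays carried the signal of an adrenal gland: all 9 cortex markers with a probe set and 7 of 8 medulla markers lay above the brightness filter. Of the markers tested, 1 of 9 of cortex and 3 of 7 of medulla were called higher in BPH. Skeletal muscle markers stood apart by strain, 9 of 16 called lower in BPH, with summed signals of 16870 to 17895 on the BPH arrays, against 44186 to 466909 on the BPL arrays. Between its 3′ and 5′ probes, the Gapdh control differed on the log2 scale by 0.169 ± 0.074 in BPH and -0.0014 ± 0.050 in BPL (SD, n = 3 each). The beta-actin control differed more, by 1.08 ± 0.16 in BPH and 0.856 ± 0.057 in BPL (SD, n = 3 each). The part of the muscle signal or of these control differences in the differences below was not tested. In bulk tissue, fewer cells of a type and less RNA per cell cannot be told apart.

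Irf4 was the member that differed. The RefSeq promoter table of GRCm38.p6 held a window for all 8 listed genes, and 3 are shown up to the base before the transcript start: Irf4 (chr13:30748983-30749232, plus strand) for its strain difference, Irf8 (chr8:120736108-120736357, plus strand) as its nearest functional relative, and Irf1 (chr11:53769764-53770013, plus strand) as the member with the best known interferon gamma element. Capitals mark matches to the motifs searched.
Irf4: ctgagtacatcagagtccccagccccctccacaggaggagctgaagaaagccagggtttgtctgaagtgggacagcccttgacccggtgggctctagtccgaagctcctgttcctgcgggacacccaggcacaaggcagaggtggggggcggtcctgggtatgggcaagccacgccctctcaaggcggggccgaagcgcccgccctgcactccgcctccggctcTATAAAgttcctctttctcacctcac
Irf8: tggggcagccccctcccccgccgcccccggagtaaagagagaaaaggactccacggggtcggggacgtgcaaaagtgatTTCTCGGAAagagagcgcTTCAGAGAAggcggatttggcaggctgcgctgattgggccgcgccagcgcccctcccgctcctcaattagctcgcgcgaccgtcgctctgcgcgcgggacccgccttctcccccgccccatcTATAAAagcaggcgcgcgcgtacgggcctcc
Irf1: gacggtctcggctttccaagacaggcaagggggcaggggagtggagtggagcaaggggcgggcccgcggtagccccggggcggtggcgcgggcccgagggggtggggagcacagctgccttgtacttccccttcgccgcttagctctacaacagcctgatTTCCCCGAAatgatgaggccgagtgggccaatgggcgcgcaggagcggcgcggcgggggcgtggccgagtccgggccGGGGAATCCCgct

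The search covered both strands of windows of 300 bases, 250 before and 50 after the start. Irf1, Irf8 and Irf9 had 2 windows each, and only the most upstream window of each gene was searched. The motifs were the STAT element TTCNNNGAA, the interferon response element (GAAA again after any 2 bases), the AP-1 element TGANTCA, the cAMP element TGACGTCA, the NF-kappaB consensus, the CArG box and, added after the sequences were seen, TATAAA. The STAT element was found once in Irf1, 90 to 82 bases before the start, at 2 places in Irf8 and once in Irf2. It is present in 8.3% of the 32851 windows of the table. The NF-kappaB consensus (8.46% of windows) was found in Irf1 and Irf2, and the interferon response element (3.44%) in Irf2. In Irf4 only TATAAA matched, 26 to 21 bases before the start, and the same letters were found in Irf7 and Irf8 (13.6% of windows). AP-1 (7.81%) and cAMP elements (1.79%) matched in none of the 8 windows, and the CArG box (1.63%) matched in Irf3 alone. These letter matches are descriptions of the windows and do not locate a bound site.

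Irf4 is a lymphoid and myeloid factor that directs plasma cell formation and, in adipocytes, responds to fasting. Its signal, in arbitrary units after scaling the arrays to a common median, was 3712, 2436 and 1267 in BPH replicates 1, 2 and 3, against 116, 73.0 and 48.7 in BPL replicates 1, 2 and 3. The strains did not overlap, and the lowest BPH array was 10.9 times the highest BPL array. The means were 2472 ± 1223 in BPH and 79.4 ± 34.3 in BPL (SD, n = 3 each). Within the arrays, this probe set stood at percentiles 77.2, 68.9 and 54.6 in BPH, against 7.25, 8.36 and 5.01 in BPL, so it lay among the dimmest on every BPL array and in the upper part on every BPH array. No detection call was used, so whether the BPL signal is above background is not known.

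On the scale used for testing, log2(signal + 203), the Irf4 difference was 3.14 ± 0.32 (SE), an 8.81-fold difference. The added constant is larger than every BPL signal and holds the fold down: the ratio of the plain means was 31.1. It ranked 12th of 7453 tested probe sets by size of increase. Irf4 passed the brightness filter only through its BPH arrays. Its mean over the 6 arrays lay at the 40.4th percentile, just above the lowest 40% that were left out, with a log2 mean of 11.27 in BPH and 8.14 in BPL against a filter threshold of 9.68. Over the 15 alternative settings in which it could be fitted, its difference ran from 2.02, with the constant at the 40th percentile of signals in place of the 20th, to 3.79, with the 10th percentile and no filter. It fell below the filter, and so was not tested, after quantile normalization, with the 10th percentile as constant or with a filter on the lowest 60%. Without the 2 BPL arrays of highest muscle signal the difference was 3.30.

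**Figure D1:**
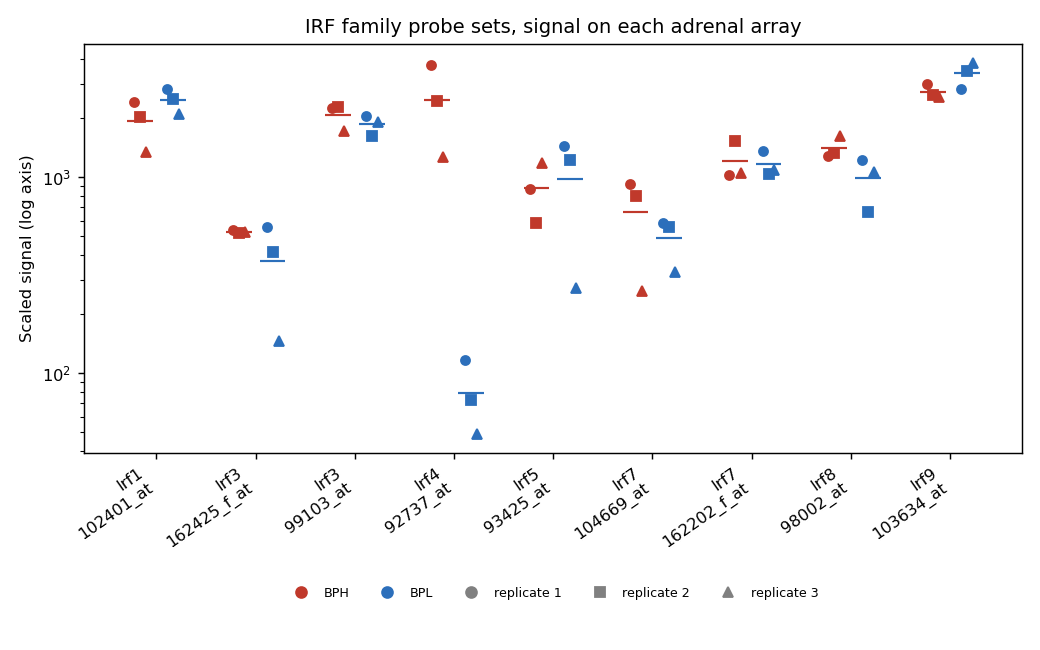
Scaled signal (log axis) of the 9 IRF family probe sets on each of the 3 BPH (red) and 3 BPL (blue) arrays, with a line at each strain mean and the symbol giving the replicate. Irf4 lies between 1267 and 3712 in BPH and between 48.7 and 116 in BPL, while the strains overlap or lie close together for the other members.

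Of the 7 member probe sets that passed the filter, 1 was called higher (limma, Benjamini-Hochberg adjusted p under 0.05) and 0 lower, where 4.11% of all tested probe sets were called, 3.18% higher and 0.926% lower. At an unadjusted p under 0.05, 1532 of the 7453 probe sets differed. Strains did not overlap for 2 of the 7, Irf4 and Irf8, against 27.6% of all tested probe sets. Both counts are descriptions, since the family was chosen from this comparison and Irf4 passed the filter only through BPH. The 2 dimmer probe sets, 1 each of Irf3 and Irf7, were below the filter. The median difference of all tested probe sets was 0.08, so small member differences are read against that shift.

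Irf8 shares with Irf4 the habit of binding DNA together with the factor Spi1 (PU.1) and is required for monocyte and dendritic cell development. Its signal was 1289, 1335 and 1613 in BPH replicates 1, 2 and 3, against 1227, 666 and 1058 in BPL replicates 1, 2 and 3. Every BPH array lay above every BPL array, but the lowest BPH value was only 1.05 times the highest BPL value. The log2 difference of 0.47 ± 0.21 (SE) was not called, and it was 0.26 without BPL replicate 2, the array with the lowest signal. Its partner Spi1 differed by 0.07 ± 0.23 (limma adjusted p = 0.89). That Spi1 value turned to -0.027 with the authors' scaling and to -0.11 without BPL replicate 2.

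Irf1, the first member to be described and a tumour suppressor induced by interferon gamma, leaned the other way without being called. It had signals of 2421, 2037 and 1338 in BPH replicates 1, 2 and 3, against 2804, 2498 and 2106 in BPL replicates 1, 2 and 3. The strains overlapped, since the highest BPH array exceeded the lowest BPL array. The log2 difference was -0.35 ± 0.22 (SE), and it was -0.13 without BPH replicate 3, the dimmest array for Irf1. Irf4 and Irf1 were both brightest on replicate 1 and dimmest on replicate 3 within each strain, as was the dimmer Irf7 probe set.

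Irf9, the DNA-binding subunit of the complex formed below the type I interferon receptor, had signals of 3004, 2634 and 2560 in BPH replicates 1, 2 and 3. The BPL replicates 1, 2 and 3 gave 2803, 3491 and 3841. BPH replicate 1 lay above BPL replicate 1, so the strains overlapped. The log2 difference of -0.28 ± 0.17 (SE) was not called.

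Irf3, which is present before infection and is activated by phosphorylation, was measured by 2 probe sets. The brighter one had signals of 2265, 2279 and 1710 in BPH, against 2042, 1629 and 1906 in BPL, a log2 difference of 0.14 ± 0.17 (SE) with overlapping strains. That value was 0.27 without BPH replicate 3, 0.062 without BPL replicate 2 and 0.037 with the authors' scaling. The other lay below the filter with signals of 538, 518 and 526 in BPH, against 559, 415 and 147 in BPL. Its BPH arrays were close together (coefficient of variation 1.97%) and its BPL arrays were not (56.0%). In the fit without a filter its log2 difference was 0.41 ± 0.28 (SE), not called.

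Irf7, the interferon-inducible amplifier of type I interferon genes, also had 2 probe sets, and they ranked the arrays differently. The brighter one, of a type whose probes similar sequences may share, had signals of 1028, 1528 and 1055 in BPH, against 1359, 1040 and 1091 in BPL. Its log2 difference was 0.03 ± 0.19 (SE), and it turned to -0.069 with the authors' scaling. The other lay below the filter, at 926, 797 and 262 in BPH and 584, 556 and 326 in BPL. There the strains overlapped widely, the BPH arrays held both the highest and the lowest values, and the log2 difference in the fit without a filter was 0.24 ± 0.35 (SE), not called.

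Irf5, which acts below Toll-like receptors to induce inflammatory cytokines, varied most within BPL among the probe sets above the filter. Its signals were 866, 584 and 1177 in BPH, against 1449, 1217 and 273 in BPL, a coefficient of variation of 33.8% in BPH and 63.6% in BPL. The difference of 0.02 ± 0.44 (SE) rested on how the low BPL replicate 3 balanced the other BPL arrays: without it the value was -0.54, and without BPL replicates 1 and 2 it was 1.14. It was also -0.074 with the authors' scaling.

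**Figure D2:**
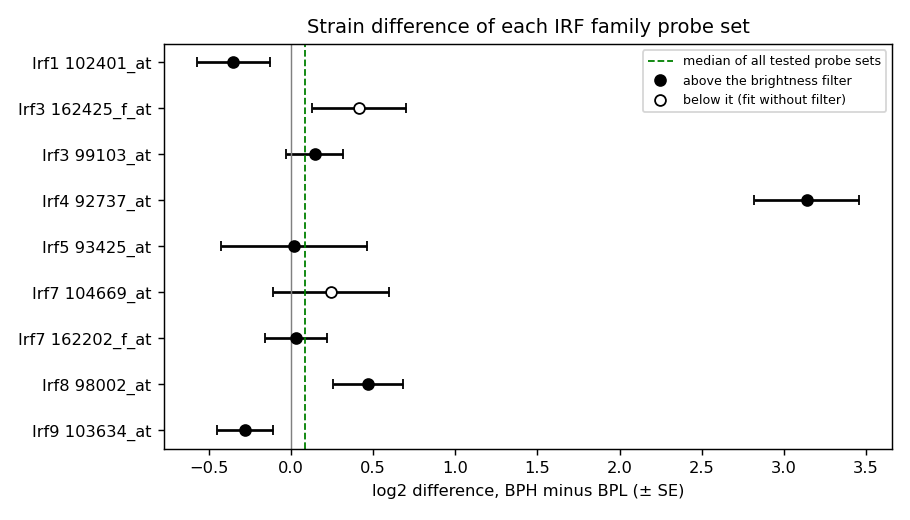
Log2 difference, BPH minus BPL, of each IRF family probe set with its standard error; open circles are the 2 probe sets below the brightness filter, and the dashed line is the median of all tested probe sets, 0.08. Irf4 stands at 3.14 and the other 8 lie between -0.35 and 0.47.

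The genes whose log2 signal over the 6 arrays was most like that of Irf4 were Hspa1b, an inducible heat shock chaperone (Pearson r = 0.997), Nr4a2, an orphan nuclear receptor of the immediate early class (r = 0.993), and Mbd1, a protein that binds methylated DNA (r = 0.991). The points share the strain difference, so r was also taken on deviations from the strain means, where it was 0.992, 0.920 and 0.897. Hspa1b had signals of 89064, 56216 and 31536 in BPH replicates 1, 2 and 3, against 2125, 2042 and 1639 in BPL replicates 1, 2 and 3. That is the order of the arrays seen for Irf4 within both strains. Its log2 difference was 4.67 ± 0.33 (SE). Mbd1 had signals of 3215, 3240 and 2433 in BPH, against 962, 949 and 934 in BPL, and a log2 difference of 1.45 ± 0.16 (SE). Hspa1b, Nr4a2 and Mbd1 were picked for their likeness to Irf4, so a strain difference follows from the choice. No p-value is given for them here. Over 6 arrays and so many probe sets, high correlations are easily found, and these are descriptions.

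None of the genes most like the other members was called, which largely follows from the choice, since those members were not called either. For Irf1 these were the lipid transfer protein Pltp (r = 0.976), the adaptor subunit Ap3s1 (r = 0.976) and the thrombin receptor F2r (r = 0.975). For Irf8 they were Blmh (r = 0.988), Usp10 (r = 0.976) and Adarb1 (r = 0.973), for Irf9 the helix-loop-helix inhibitor Id2 (r = 0.984), Lrp6 (r = 0.972) and Slc22a2 (r = 0.971), and for Irf5 Selplg (r = 0.992), Spns1 (r = 0.970) and Sinhcaf (r = 0.966). For Irf3 they were Ppp1r18 (r = 0.977), Tnxb (r = 0.975) and Tbc1d23 (r = 0.975), and for the brighter Irf7 probe set Tbl3 (r = 0.996), Nptx1 (r = 0.963) and Acad9 (r = 0.953).

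**Figure D3:**
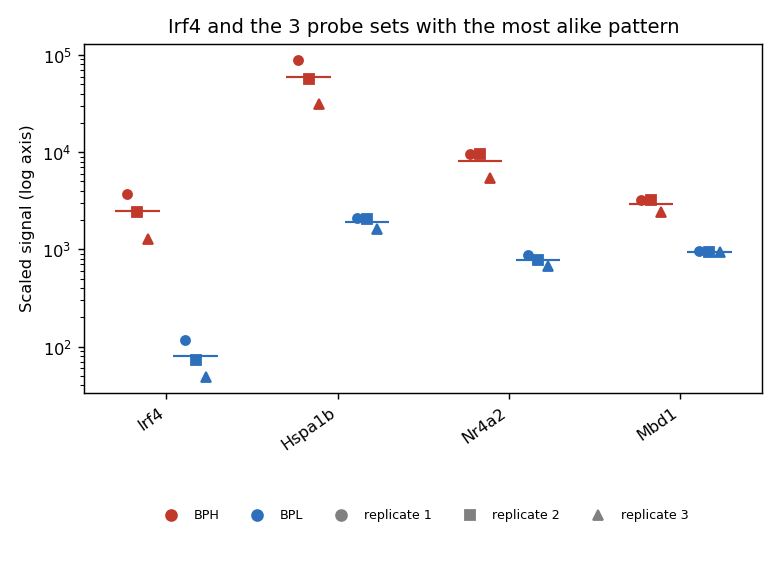
Scaled signal (log axis) of Irf4, Hspa1b, Nr4a2 and Mbd1 on each of the 3 BPH (red) and 3 BPL (blue) arrays, with a line at each strain mean. All 4 are higher on every BPH array, and replicate 3 is the lowest array of each strain for all 4.

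Cell types known to express Irf4 were followed by their markers. Of 13 B and plasma cell markers 11 had a probe set, and their summed signal was lower in BPH, at 8218 to 9545, than in BPL, at 9848 to 13135. The 4 that passed the filter were the B cell receptor component Cd79a, the surface protein Ms4a1 (CD20), the kinase Blk and the immunoglobulin heavy chain Ighm. By their brightest probe sets all 4 had negative differences, from -0.49 to -0.24, and limma called none (0 also at an unadjusted p under 0.05). Dimmer probe sets went both ways. Below the filter, Ms4a1 differed by 0.27 ± 0.32 and Blk by -0.43 ± 0.29 (SE, fit without a filter). Further Ighm probe sets also had both signs. Jchain, the joining chain of secreted antibody, was below the filter at 398, 461 and 697 in BPH, against 496, 422 and 522 in BPL.

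T and NK cell markers, 14 of 18 with a probe set, summed to 4197 to 6065 in BPH and 3872 to 5630 in BPL. Their 3 tested members were not called by limma, with 2 at an unadjusted p under 0.05. Macrophage and dendritic cell markers, 23 of 24 with a probe set, summed to 38415 to 42188 in BPH and 34162 to 38323 in BPL. Their 14 tested members had a median log2 difference of 0.26 and none was called by limma, with 5 at an unadjusted p under 0.05. Fat markers, 10 of 12 with a probe set, overlapped, at 192603 to 273655 in BPH and 249866 to 263331 in BPL, and 1 of 10 was called, the lipase Lipe, lower in BPH. No marker of any list was at 0. The part of these cells in the Irf4 difference was not tested.

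**Figure D4:**
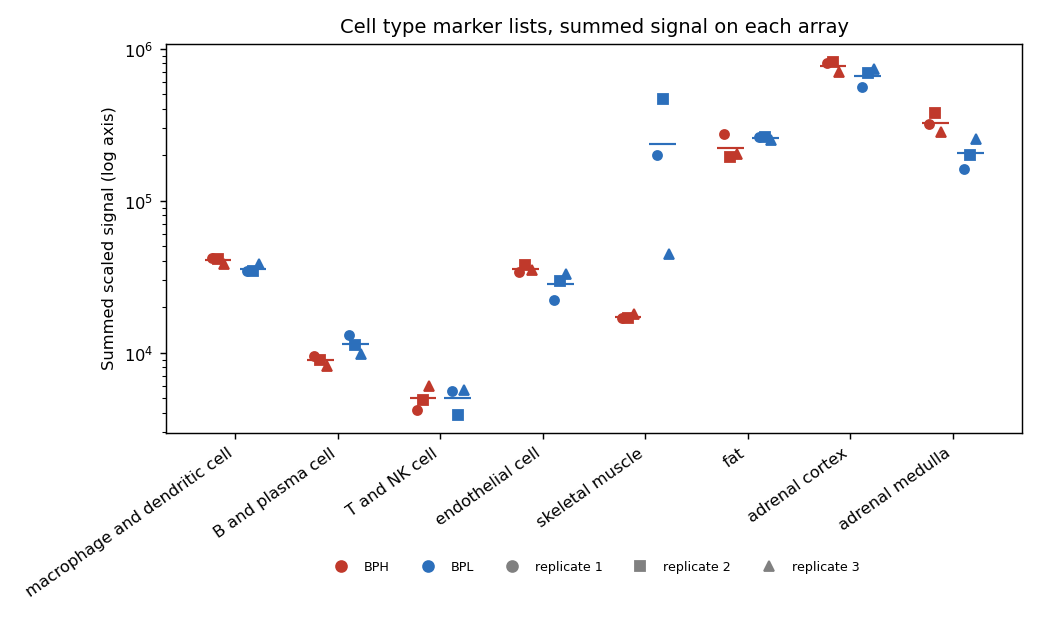
Summed scaled signal (log axis) of each cell type marker list on each of the 3 BPH (red) and 3 BPL (blue) arrays, 1 probe set per gene, with a line at each strain mean. B and plasma cell markers lie at 8218 to 9545 in BPH and 9848 to 13135 in BPL, and skeletal muscle markers differ most between the strains.

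Genes that act above the family include virus sensors, their adaptors and kinases. With 1 probe set per gene, the brightest, 4.24% of 5664 tested genes were called, 3.32% higher and 0.918% lower, and their median log2 difference was 0.09. Of 9 tested sensors, adaptors and kinases 1 was higher and 0 lower (median 0.30). It was Myd88, the adaptor of Toll-like receptors through which Irf5 and Irf7 are activated, with signals of 1777, 1403 and 1781 in BPH, against 820, 977 and 907 in BPL. Its log2 difference was 0.74 ± 0.16 (SE, limma adjusted p = 0.039). The strains did not overlap, but the call was lost without any single array of the 6 (limma adjusted p from 0.066 to 0.13) with the authors' scaling (0.061), no filter (0.0998), the robust variance with a trend (0.053), the replicate block (0.10) and without BPL replicates 1 and 2 together (0.31). It was kept in 4 of 15 alternatives. Tbk1, the kinase that phosphorylates Irf3 and Irf7, differed by 0.30 ± 0.15 (limma adjusted p = 0.31).

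Of 7 tested interferons and receptors 0 were higher and 1 was lower in BPH, and all 7 had negative differences by their brightest probe sets (median -0.18). Another tested probe set of Ifnar2 had a positive difference, 0.19 ± 0.26 (SE), not called. Il10rb, a receptor chain shared by interleukin 10 and interferon lambda, had signals of 12054, 8175 and 9436 in BPH, against 17126, 20997 and 22025 in BPL. It fell by 1.01 on the log2 scale, with an SE of 0.19 (limma adjusted p = 0.025). The call was lost without BPH replicate 2 (0.11), BPH replicate 3 (0.079), BPL replicate 2 (0.085) or BPL replicate 3 (0.052), without BPL replicates 1 and 2 together (0.14), with no filter (0.071) and with the replicate block (0.056). Ifngr2, a chain of the interferon gamma receptor, had a larger difference of -1.12 ± 0.41 that was not called (limma adjusted p = 0.18), with 1029, 142 and 312 in BPH and 1403, 1106 and 861 in BPL. The type I receptor chains Ifnar1 and Ifnar2 differed by -0.13 ± 0.20 and -0.14 ± 0.20, and the interferon gamma receptor Ifngr1 by -0.01 ± 0.19 (limma adjusted p from 0.73 to 0.98). The value of Ifnar1 changed sign without BPH replicate 3, at 0.042, and that of Ifngr1 without BPH replicate 2, at 0.12, or BPL replicate 2, at 0.087.

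Of 16 tested JAK-STAT genes limma called 0, with 3 at an unadjusted p under 0.05 (median 0.04). Jak1 and Jak2, the kinases below interferon receptors, differed by 0.13 ± 0.17 and 0.22 ± 0.17, and Jak1 turned to -0.018 after quantile normalization. A dimmer Jak2 probe set, below the filter, had the opposite sign, -0.67 ± 0.27 (SE, fit without a filter). The feedback inhibitors Socs1 and Socs3 differed by -0.63 ± 0.38 and 0.56 ± 0.29 (limma adjusted p = 0.38 and 0.31). Stat2 and Nfkb1 were not matched either and are not analysed here.

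Among 9 tested NF-kappaB genes, which induce Irf1 and Irf4 in lymphocytes, 1 was higher and 0 lower (median 0.33). Bcl3, a nuclear cofactor of NF-kappaB dimers, had signals of 3664, 2637 and 3010 in BPH, against 528, 488 and 835 in BPL. On the log2 scale its BPL mean lay just below the filter threshold, so it passed the filter through its BPH arrays. It was not tested with the filter on the lowest 60%. The lowest BPH array was well above the highest BPL array, and the log2 difference was 2.02 ± 0.21 (SE, limma adjusted p = 0.0013), called in all 15 alternatives that tested it. The inhibitor Nfkbia differed by 0.69 ± 0.19 (limma adjusted p = 0.085) and the subunit Rela by 0.37 ± 0.18 (limma adjusted p = 0.28), and neither passed. Nfkbia was called in 2 of 16 alternatives, with the filter on the lowest 60% and with the robust variance with a trend (both 0.035).

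Of 18 tested partner factors and corepressors 1 was higher and 0 lower (median 0.11). Cebpb, a basic leucine zipper factor of inflammatory and fat cell gene control, had signals of 31478, 34785 and 23802 in BPH, against 15163, 14917 and 15368 in BPL. Its difference was 0.96 ± 0.18 (SE, limma adjusted p = 0.023), and the call was lost without BPH replicate 1 (0.085), BPH replicate 2 (0.11), BPL replicate 1 (0.064) or BPL replicate 2 (0.077). Without BPL replicates 1 and 2 together (limma adjusted p = 0.26) and with no filter (0.067) it was lost too.

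Interferon-induced effectors are the genes that IRFs are best known to regulate. Of 28 tested interferon-induced effectors 1 was higher and 1 lower in BPH, 14 had positive differences, and the median was -0.02. The share called, 7.14% of these 28 genes, is read against 4.24% of all tested genes and rests on these 2 calls. Ifit3, a cytoplasmic antiviral protein, had signals of 558, 876 and 466 in BPH, against 1535, 1783 and 2104 in BPL, and a log2 difference of -1.29 ± 0.21 (SE, limma adjusted p = 0.016). On the log2 scale its BPH mean lay just below the filter threshold, so it passed the filter through its BPL arrays. Its call was lost without BPH replicate 1 (limma adjusted p = 0.067) or BPL replicate 2 (0.050), without BPL replicates 1 and 2 together (0.093) and with no filter (0.051). The ubiquitin ligase Trim25 differed by 0.83 ± 0.19 (limma adjusted p = 0.048), and that call was kept in 4 of 16 alternatives and lost with the filter on mean linear signals (0.052). Without single arrays its adjusted p ran from 0.022, without BPL replicate 3, to 0.16, and without BPL replicates 1 and 2 its difference was 0.50 (0.52).

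Other well known interferon targets were not called: Ifit1 differed by -0.14 ± 0.33, Isg15, a ubiquitin-like modifier, by -0.22 ± 0.30, Gbp2 by 0.25 ± 0.20 and Irgm1 by -0.17 ± 0.19 (limma adjusted p from 0.49 to 0.83). Ifit1 turned to 0.25 without BPL replicate 3, and Isg15 to 0.090 without BPH replicate 3. Isg15 had signals of 1512, 2042 and 828 in BPH, against 1306, 1528 and 2196 in BPL, so the strains overlapped. Usp18 and Cxcl10 were below the filter, the chemokine Cxcl10 with 33.3, 224 and 43.0 in BPH and 110, 263 and 191 in BPL.

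Of 13 tested genes of MHC class I and antigen processing, targets of Irf1 in other tissues, 0 were higher and 1 was lower (median 0.19). It was H2-Q10, at 1512, 799 and 1505 in BPH, against 18626, 14949 and 9297 in BPL, a log2 difference of -3.28 ± 0.30 (SE, limma adjusted p = 8.7e-04). Class I genes are near-identical copies that differ between mouse strains, and probe sets can share them. For H2-D1 the brightest probe set differed by 0.49 (not called) while the other 2 differed by 1.88 ± 0.19 (limma adjusted p = 0.0013) and 0.07 ± 0.20 (0.86). The light chain B2m differed by 0.29 ± 0.22, the peptide transporter Tap1 by -0.23 ± 0.23 and the immunoproteasome subunits Psmb8 and Psmb9 by 0.17 ± 0.17 and 0.33 ± 0.20. None of these 4 passed (limma adjusted p from 0.38 to 0.60).

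The immediate early genes, to which Nr4a2 belongs, were the list with the largest share of calls, 14 higher and 0 lower of 22 tested (median 1.85). Nr4a2 itself had signals of 9560, 9531 and 5466 in BPH, against 875, 784 and 674 in BPL, a log2 difference of 3.06 ± 0.23 (SE). It is among the 14, but it was also picked for its likeness to Irf4, so no p-value is given. Egr1, Junb and Fos differed by 3.16, 3.41 and 3.47, all called by limma. Their BPH arrays were not in the order of Irf4: Fos had 6067, 16182 and 12804 in BPH replicates 1, 2 and 3, lowest where Irf4 was highest, against 555, 1023 and 864 in BPL replicates 1, 2 and 3.

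**Figure D5:**
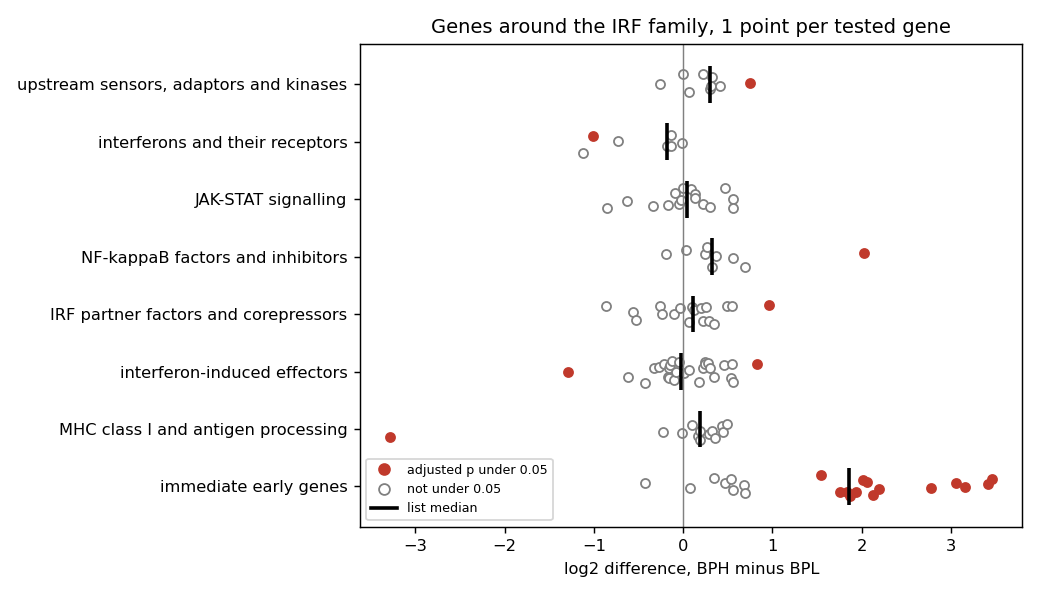
Log2 difference, BPH minus BPL, of every tested gene in 8 lists around the IRF family, with genes called by limma in red, others as open circles and the list median as a black line. Among 28 interferon-induced effectors 1 is called higher and 1 lower, and the immediate early genes hold 14 calls, all higher.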

How the data were processed

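Values were deposited as linear intensity, with MAS5 named in the submitters' processing notes. Its version and settings, and a genome build, were not stated in the labels. All 6 arrays were used, each as 1 sample, and no 2 arrays shared more than 1 identical value.

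The 66 control probe sets were left out. Arrays, with medians of 945 to 1144, were scaled to a common median of 1040. Values were log2(signal + 203), the constant being the 20th percentile of all signals, which understates the fold of dim genes. Probe sets in the bottom 40% by mean log2 value were not tested, leaving 7453. The scale of that mean was set after seeing the data: the mean of linear signals was tried first and gave 294 calls, and the log2 mean was kept because it matched an earlier analysis of these data, at 306. BPH was compared with BPL in limma 3.58.1 (R 4.3.3; lmFit and eBayes, 2-sided), with Benjamini-Hochberg adjustment over all tested probe sets and a threshold of 0.05. The model was tested on simulated data. The number of arrays limits the precision. Symbols come from GEO's platform annotation, and promoter windows from RefSeq (GRCm38.p6).

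Members and lists were chosen with earlier results of these data known. Named genes were all member probe sets, up to 4 called genes of each list with the largest differences, a set of well known pathway genes, and for each tested member the 3 genes of highest Pearson r, without clone and predicted names. Jchain, Lipe, Ifngr2, H2-D1 and the B cell markers were chosen after their values were seen. Alternatives were the authors' scaling, quantile normalization, 2 other constants, 3 other filters, a robust variance with a trend, the replicate number as a block, single arrays left out, BPL replicates 1 and 2 left out, and averaging probe sets within genes. The filter on mean linear signals, quantile normalization with no filter, and the lower constant with no filter were added after seeing the data.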

Additional observations from a re-analysis of the deposited data

How the results depend on the processing

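The count of called IRF family probe sets, 1 in the main setting, is a description, since the family was chosen from this comparison and Irf4 passed the filter only through BPH. It was 0 after quantile normalization, with the constant at the 10th percentile and with the filter on the lowest 60%, where Irf4 was below the filter and not tested, and no other member was called in any alternative. With no filter, Irf4 differed by 3.13 after quantile normalization and by 3.79 with the lower constant. Over single arrays left out, its difference ran from 2.81 to 3.52. Over all probe sets the 306 calls became 127 with no filter, 92 without BPL replicates 1 and 2, 128, 112 and 186 without BPH replicate 1, 2 or 3, and 160, 138 and 372 without BPL replicate 1, 2 or 3. Calls were 237 higher and 69 lower, against 195 and 99 with the authors' scaling and 182 and 89 after quantile normalization, and the median of all differences was 0.08 in the main setting, -0.02 with the authors' scaling and -0.0002 after quantile normalization. With the filter on mean linear signals, 294 probe sets and 20 pathway genes were called, Trim25 being lost (adjusted p = 0.052). In the lists around the family 120 genes were tested and 21 were called, 14 of them in the immediate early list. Of all tested genes 4.24% were called. The 21 calls became 13 with no filter and 14 to 18 without single arrays. Irf5 turned to -0.027 with the constant at the 40th percentile, to -0.074 with the authors' scaling, and to -0.18 without BPH replicate 3, and ran from -0.54 to 0.35 without single arrays. The brighter Irf7 probe set turned to -0.069 with the authors' scaling and ran from -0.13 to 0.13 without single arrays, with -0.033 and -0.0044 without BPL replicate 2 or 3. Jak1 turned to -0.018 after quantile normalization. Without BPL replicates 1 and 2, Jak1, B2m and Psmb9 turned to -0.032, -0.064 and -0.0081. Spi1 turned to -0.027 with the authors' scaling. Without single arrays, Spi1 ran from -0.11 to 0.32, Ifnar1 from -0.25 to 0.042, Ifngr1 from -0.13 to 0.12, Isg15 from -0.47 to 0.090 and Ifit1 from -0.43 to 0.25. The cause was not tested. The sample titles number the replicates, and whether same-numbered arrays were processed together is not known. Deviations from the strain means of same-numbered arrays correlated at -0.06, -0.05 and -0.18 across probe sets, which cannot settle it. With the replicate block 239 probe sets were called, Irf4 among them. MAS5 signals of dim probe sets carry the most noise, and Irf4 in BPL is such a signal.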

Other observations

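Irf4 lies on chromosome 13, and its neighbours in the RefSeq gene table were looked up after its difference was seen. Of the 10 nearest genes with a probe set of a single symbol, 5 on each side, 2 passed the brightness filter. Sox4, a developmental transcription factor, had a log2 difference of 0.19 ± 0.21 and Wrnip1, a DNA repair ATPase, of 0.46 ± 0.25 (SE), and limma called neither (adjusted p = 0.65 and 0.33). The other 8, among them the forkhead genes Foxq1, Foxf2 and Foxc1, were below the filter. Irf2bp1, a corepressor named for binding Irf2, had signals of 4575, 5318 and 4579 in BPH, against 4858, 4294 and 4271 in BPL, with overlapping strains.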
